A study of Rattus norvegicus with 9 samples.

Results

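The proteasome genes of the rat ventricle were followed through 9 RNA libraries from fetal, pressure-overloaded and sham-operated hearts. Members were all loci whose deposited gene symbol started with Psma to Psmg and a number. This name rule found 32 genes among 25075 annotated loci of at least 200 nucleotides. One of them, Psmc3ip, encodes a recombination factor and was set apart, which left 31 proteasome genes, and 30 of these passed the filter on low values. The 30 comprised 4 genes of the outer alpha ring and 6 of the inner beta ring of the 20S core, 3 immunoproteasome genes, 5 ATPases and 9 non-ATPases of the 19S cap, and 3 assembly helpers. Members such as Psmb5, Psmc3, Psmd4 and Psme1 were not named in any library and were not analysed here.

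Each group held 3 libraries, and all rats were Sprague-Dawley. The sham group was adult left ventricle after the surgery without the constriction, and the TAC group was adult left ventricle after transverse aortic constriction, a narrowing of the aorta that makes the heart pump against a raised pressure. The fetal group was whole ventricle at embryonic day 18, with 1 library per litter, so that each fetal library stands for a litter and not for an animal. Adult RNA came from a Qiagen column kit and fetal RNA from Trizol, so that age, heart region and RNA isolation cannot be told apart in any fetal comparison. The time after surgery and whether the adult libraries came from separate animals are not given in the sources used here. P-values therefore measure the spread between these libraries, which for the adult groups may be partly technical.

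The proteasome is the barrel-shaped protease that degrades ubiquitin-tagged proteins in the cytosol and nucleus. Its 20S core holds the active sites inside a beta ring, and the 19S cap recognises, deubiquitinates and unfolds the substrate. Interferon and inflammatory signals induce 3 alternative catalytic subunits, which replace their standard counterparts to form the immunoproteasome, a form abundant in leukocytes and known for making peptides for antigen presentation. In heart muscle the proteasome turns over contractile proteins, and its activity is a long-standing subject in cardiac hypertrophy.

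Values are scaled FPKM. FPKM, which the authors deposited, are fragments normalised for transcript length and library size, and each deposited library also carried a constant multiplier of unknown origin, with medians of 2044865 to 39539700 over the values above 0. The values were summed over the transcripts of a locus and divided by a scaling factor for each library. They are normalised for transcript length, so levels can be set beside each other between genes. Estimated depth was 8430000 to 15910000 fragments per library in TAC, 16190000 to 28050000 in sham and 21990000 to 30140000 in fetal libraries. The first library of every group had assembled features as short as 43 nucleotides, against 63 in the other 6 libraries. It was taken as a separate library batch in alternative settings only, and the main limma fit had no term for it. Of 17 heart muscle markers listed, Actc1, the cardiac actin, and Mb, myoglobin, carried symbols. Actc1 was abundant in all 9 libraries without a call, though fetal 2, at 135163, stood far above the rest, and Mb was lower in fetal ventricle (log2 difference -4.32, limma adjusted p = 6.89e-05). All 7 proliferation markers tested were higher in fetal than in sham ventricle, with a median log2 difference of 4.47. Of 4 erythroid markers tested 1, the embryonic globin Hbe1, was higher, by 6.01. Over all loci, 22.4% were called higher in this comparison, so the erythroid count was near the general rate. The part of these cell states in the proteasome differences was not tested. Differences are given on the scale log2(scaled FPKM + 1), which understates the change of genes with low values, and a change was called at an adjusted p below 0.05 (limma, Benjamini-Hochberg over 14192 loci).

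The 3 immunoproteasome genes were lower in every fetal library than in every adult library, and they were the largest differences among the proteasome genes. Psmb8 and Psmb9 were near the detection filter in fetal ventricle, while Psmb10 kept a measurable level. Psmb8 and Psmb9 lie together on chromosome 20 and Psmb10 lies alone on chromosome 19. Their promoters are printed because these genes moved together, followed by that of Psmb7, the standard counterpart of Psmb10. The sequences are those of RefSeq on build GRCr8, 250 bases before to 50 bases after the start site, written 5′ to 3′ along the gene. They are chr20:4656982-4657281 on the minus strand for Psmb8, chr20:4668750-4669049 on the plus strand for Psmb9, chr19:50743243-50743542 on the minus strand for Psmb10 and chr3:42827421-42827720 on the minus strand for Psmb7. In the first 3, capitals mark the interferon-stimulated element GAAANNGAA and the gamma-interferon activated site TTCNNNGAA on either strand. In Psmb7, capitals mark the CCAAT box and the ETS core CCGGAAG on either strand.
Psmb8: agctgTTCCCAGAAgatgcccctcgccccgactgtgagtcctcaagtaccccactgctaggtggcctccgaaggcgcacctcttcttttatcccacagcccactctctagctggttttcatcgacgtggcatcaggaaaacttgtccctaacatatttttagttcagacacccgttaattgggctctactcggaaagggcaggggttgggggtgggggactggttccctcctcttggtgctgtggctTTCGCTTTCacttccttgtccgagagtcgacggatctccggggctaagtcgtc
Psmb9: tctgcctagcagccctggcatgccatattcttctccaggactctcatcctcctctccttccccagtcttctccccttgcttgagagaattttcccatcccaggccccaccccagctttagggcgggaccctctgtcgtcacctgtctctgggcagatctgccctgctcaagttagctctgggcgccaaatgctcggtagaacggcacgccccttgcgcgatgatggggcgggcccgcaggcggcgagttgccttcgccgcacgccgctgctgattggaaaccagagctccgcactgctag
Psmb10: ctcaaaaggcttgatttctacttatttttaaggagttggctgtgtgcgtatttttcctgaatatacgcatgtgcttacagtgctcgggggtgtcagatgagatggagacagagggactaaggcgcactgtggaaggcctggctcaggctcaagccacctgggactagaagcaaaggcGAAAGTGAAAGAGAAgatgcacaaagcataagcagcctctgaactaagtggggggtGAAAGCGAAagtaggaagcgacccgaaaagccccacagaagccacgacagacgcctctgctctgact
Psmb7: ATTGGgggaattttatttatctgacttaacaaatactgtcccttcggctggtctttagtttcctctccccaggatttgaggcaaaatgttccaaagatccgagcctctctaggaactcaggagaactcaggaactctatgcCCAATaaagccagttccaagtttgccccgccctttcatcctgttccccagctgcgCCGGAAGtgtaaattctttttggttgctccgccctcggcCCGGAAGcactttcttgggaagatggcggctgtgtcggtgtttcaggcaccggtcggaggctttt

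The Psmb10 promoter held 3 matches to GAAANNGAA, at bases 178 to 186, 184 to 192 and 234 to 242 of the printed run, and the first 2 overlap. The Psmb8 promoter held 1 match to GAAANNGAA at bases 248 to 256, which spans the start site, and 1 to TTCNNNGAA at bases 6 to 14. The Psmb9 window held neither set of letters. Among 33469 RefSeq promoters of the same length, 9.71% held GAAANNGAA and 8.87% held TTCNNNGAA. Of the 21 promoters of 20S and 19S members in the table, 4 held GAAANNGAA and 3 held TTCNNNGAA. The ETS core was found in 8 of these 21 promoters and in 8.75% of all promoters, and in none of the 3 immunoproteasome promoters. The antioxidant response element core TGANNNNGC was found in 14 of the 21 and in 40.5% of all promoters, and CCAAT in 10 of 21 and in 37.5%. Psmb7 held 2 matches each to CCAAT and the ETS core, while the promoter of Psmb6, the standard counterpart of Psmb9, held neither. These are matches of letters and not measured binding sites. The table held promoters for 28 of the 31 members.

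Psmb8 encodes LMP7, the chymotrypsin-like site of the immunoproteasome, and its locus spans rn4 chr20:4786263-4789198. It measured 28.5, 39.9 and 34.5 scaled FPKM in sham 1 to 3, 27.5, 20.1 and 32.9 in TAC 1 to 3, and 0.731, 1.16 and 0.630 in fetal 1 to 3. The fetal libraries lay far below all adult libraries, while the sham and TAC values overlapped. The mean level was 34.3 ± 5.72 in sham and 0.842 ± 0.284 in fetal (SD, n = 3 each), a ratio of means of 40.8. On the log2 scale the fetal level was lower than sham by a difference of -4.26 (SE 0.23, limma adjusted p = 5e-06), and lower than TAC by -3.90. In fetal 1 to 3 these values rested on 15, 19 and 12 fragments, as implied by the deposited confidence bounds, against 313, 337 and 586 in sham. Only 1 fetal value reached the filter of 1, so the gene entered the test through the adult libraries.

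Psmb9, 12.0 kb away at chr20:4801198-4806570, encodes LMP2, which takes the place of the caspase-like subunit Psmb6. It stood at 29.0, 33.0 and 32.2 in sham, 28.1, 29.0 and 35.2 in TAC, and 1.44, 1.10 and 1.5 in fetal libraries. Again no fetal value came near an adult one, and the adult groups overlapped. The fetal mean of 1.35 ± 0.217 was 23.3 times below the sham mean of 31.4 ± 2.13 (SD, n = 3 each). The log2 difference was -3.79 against sham (SE 0.16, limma adjusted p = 1.76e-06) and -3.76 against TAC. The fetal values rested on 22, 13 and 23 implied fragments.

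Psmb10, at rn4 chr19:35777712-35780194, encodes MECL-1, which replaces the trypsin-like subunit Psmb7. Its levels were 36.0, 48.7 and 36.7 in sham, 28.3, 34.1 and 39.0 in TAC, and 6.22, 9.59 and 3.74 in fetal libraries. The highest fetal value was well below the lowest adult value. The sham mean of 40.5 ± 7.13 was 6.22 times the fetal mean of 6.52 ± 2.94, with a log2 difference of -2.53 (SE 0.29, limma adjusted p = 0.0002). Against TAC the difference was -2.28 (limma adjusted p = 0.000357). When only the reference transcripts were counted, without those assembled for each library, the adjusted p of Psmb10 was 0.0711 against sham and 0.0756 against TAC. In fetal 3 the whole Psmb10 value was assigned to an assembled transcript and 0% to the reference transcript.

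**Figure D1:**
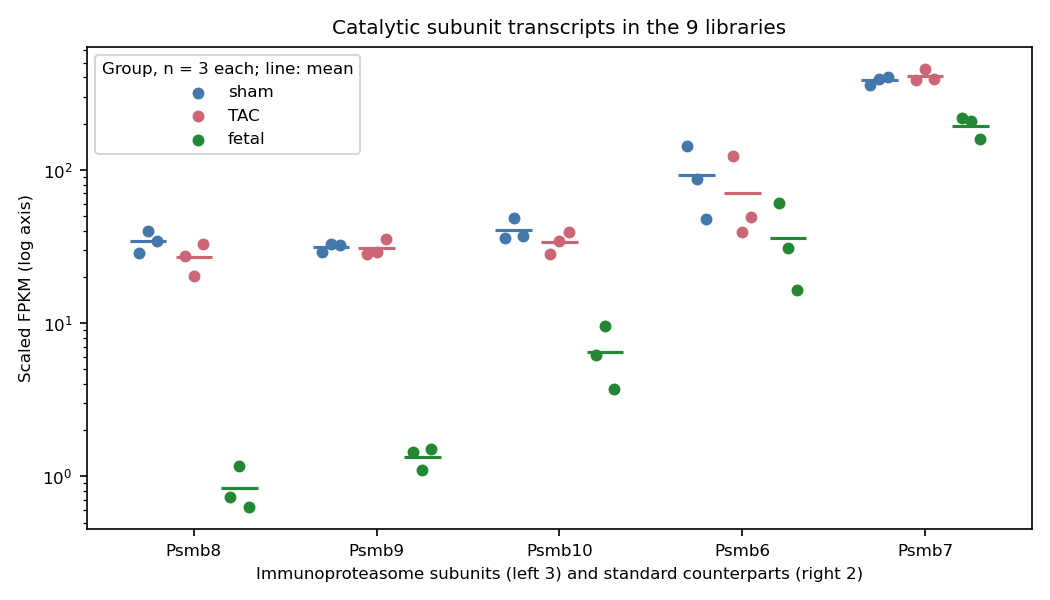
Scaled FPKM (log axis) of the immunoproteasome genes Psmb8, Psmb9 and Psmb10 and of the standard catalytic genes Psmb6 and Psmb7 in each library, with a line at the mean of 3 libraries. Fetal points lie below 10 for the 3 immunoproteasome genes and adult points above 20, while the fetal and adult points of Psmb6 overlap.

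The balance between immunoproteasome and standard core was expressed as a ratio within each library, which no scaling between libraries can alter. The summed immunoproteasome genes made up 5.16%, 6.26% and 6.21% of the summed 10 standard 20S genes in sham 1 to 3. The shares were 4.96%, 4.53% and 5.91% in TAC 1 to 3 and 0.509%, 0.867% and 0.380% in fetal 1 to 3. Every fetal library was below every adult library, and the TAC and sham values overlapped. The sham mean of 5.88% ± 0.618 was 10.04 times the fetal mean of 0.585% ± 0.252 (SD, n = 3 each). A two-sided exact permutation test gave p = 0.1 for fetal against sham, the smallest value that 3 libraries against 3 can give, and p = 0.2 for TAC against sham, whose means were 5.14% ± 0.703 and 5.88% ± 0.618.

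**Figure D2:**
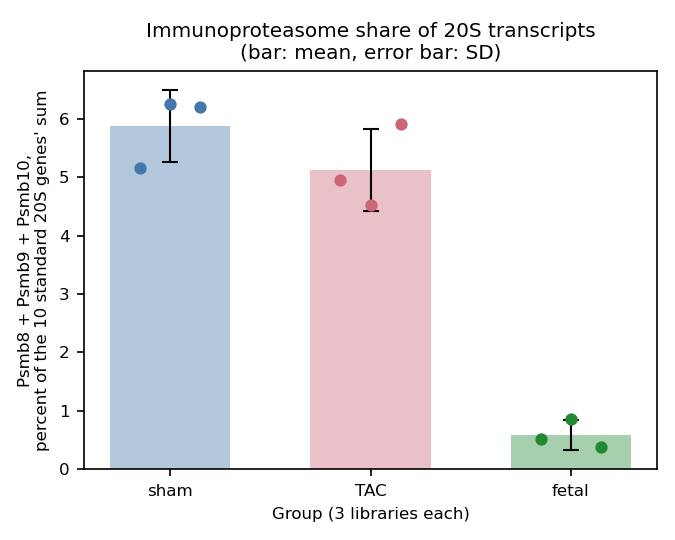
Sum of Psmb8, Psmb9 and Psmb10 as a percent of the summed 10 standard 20S genes, by group (bars, means; error bars, SD; points, the 3 libraries). The fetal libraries lie between 0.380% and 0.867%, and the 6 adult libraries between 4.53% and 6.26%.

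Other antigen presentation and interferon genes were lower in fetal ventricle in the same comparison. Of 30 such genes listed, 15 carried a symbol and passed the filter, and 14 of these were lower than sham, none higher, counting Psmb8, Psmb9 and Psmb10. Without the 3 members, 11 of 12 were lower, with a median log2 difference of -2.59, beside 0.05 over all loci tested, of which 23% were lower. Gbp1, Gbp5, Mx1 and Ifit3 were below the filter in all 3 fetal libraries and entered the test through the adult libraries. A low fetal value was thus a condition of their being counted. Tap1 reached the filter only in fetal 2, and Tap2 and Irf7 only in fetal 2 and 3. Tap1, Tap2 and Irf7 therefore also needed adult libraries to enter the test. The peptide transporter genes Tap1 and Tap2 differed by -2.63 and -3.23, and the transcription factors Irf1 and Irf7 by -2.46 and -3.70. The guanylate-binding proteins Gbp1, Gbp2 and Gbp5 differed by -5.71, -3.19 and -2.63, and Ifit2, Ifit3 and Mx1, which are interferon-induced antiviral genes, by -1.71, -2.55 and -2.19. Erap1, which trims peptides for presentation, differed by -1.04. Ifit1 differed by 0.28 and was not called. The adjusted p-values of the 11 lay between 9.83e-07 and 0.00229.

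Most leukocyte markers tested moved in the same direction. All 9 macrophage markers tested were lower in fetal than in sham ventricle, by -1.63 to -3.01 on the log2 scale. Their summed level was 74.8 to 84.9 in fetal, 329 to 577 in sham and 386 to 581 in TAC libraries. Over all loci tested, 23% were called lower and 22.4% higher in this comparison, the shares to set beside each marker count. Of 7 lymphocyte markers tested, 4 were lower and 1, Cd52, was higher. The summed level of the 11 listed loci was 14.7 to 26.3 in fetal, 56.1 to 78.3 in sham and 64.0 to 82.8 in TAC. Of the 4 lower ones, Cd3e, Ccl5 and Cd2 were below the filter in all 3 fetal libraries, as was the macrophage marker Cd14. They entered the test through the adult libraries, so that a low fetal value was a condition of their being counted. Among the T cell genes, Cd3e, Cd3d and Cd8b were listed at 0 in all 3 fetal libraries. Their sham means were also low, at 1.67, 0.944 and 0.561, and Cd3d and Cd8b were below the filter. Cd3g, also below the filter, measured 0.236 in fetal 1. Cd8a was present in every fetal library and was not called. It measured 2.88 ± 0.335 in fetal and 3.07 ± 2.63 in sham libraries (SD, n = 3 each). Of 4 endothelial markers, 3 were lower, including Vwf at -1.89. The part of these cell types in the immunoproteasome difference was not tested. In bulk tissue, fewer cells of a type and less RNA per cell cannot be told apart.

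**Figure D3:**
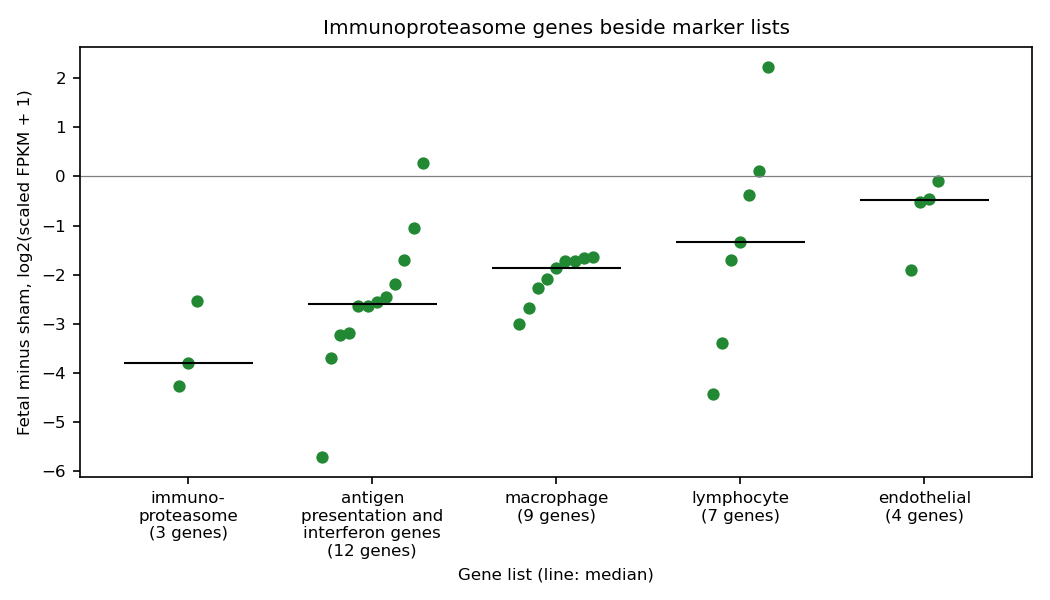
Fetal minus sham difference on the log2(scaled FPKM + 1) scale for the 3 immunoproteasome genes, 12 further antigen presentation and interferon genes and 3 marker lists (1 point per gene, line at the median). The medians are -3.79, -2.59, -1.85 for macrophage, -1.33 for lymphocyte and -0.49 for endothelial markers.

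Across all 30 proteasome genes tested, 9 were lower and 2 higher in fetal than in sham ventricle. Over all 14192 loci, 45.5% were called in this comparison, 22.4% as higher and 23% as lower. The median log2 difference of the 30 genes was -0.32, beside 0.05 over all loci. Without the immunoproteasome genes, 6 of 27 were lower and 2 higher, with a median of -0.17, so the standard proteasome genes were called no more often than loci in general. No overlap between the 3 fetal and the 3 sham values was seen for 11 genes on the low side and 2 on the high side, against 28.7% and 29.2% of all loci. Psmb8 and Psmb9 kept their calls against sham under all 23 alternative settings. With reference transcripts alone they were the only lower calls, 2 in place of 9.

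In the beta ring, Psmb7 and Psmb4 were lower in fetal ventricle. Psmb7, the standard trypsin-like subunit, measured 358, 388 and 405 in sham, 382, 454 and 388 in TAC, and 217, 207 and 159 in fetal libraries. It was the highest proteasome gene in all 6 adult libraries, and its fetal values did not reach the lowest adult value. The means were 384 ± 23.5 in sham and 194 ± 31.0 in fetal (SD, n = 3 each), a log2 difference of -0.99 (SE 0.16, limma adjusted p = 0.00118). Against TAC the difference was -1.08 (limma adjusted p = 0.000787).

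Psmb4, a non-catalytic beta subunit with a role in core assembly, stood at 228, 278 and 344 in sham, 221, 295 and 284 in TAC, and 174, 162 and 139 in fetal libraries. The fetal group did not overlap with either adult group. Its log2 difference was -0.82 against sham (SE 0.19, limma adjusted p = 0.00793) and -0.75 against TAC (limma adjusted p = 0.0127). The call against TAC was lost with equal library totals (adjusted p = 0.0971), upper quartile scaling (0.0768) and reference transcripts only (0.0829), and against sham with reference transcripts only (0.0998). Psmb1, Psmb2 and Psmb3, which complete the measured non-catalytic beta genes, differed by 0.14, 0.18 and -0.38 against sham and were not called.

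Psmb6, the standard caspase-like subunit, varied more between libraries than any other standard member. It measured 143, 87.6 and 47.5 in sham, 123, 39.5 and 49.5 in TAC, and 60.2, 30.8 and 16.3 in fetal libraries. The first library, taken above as a separate batch, was the highest in each group, and fetal 1 exceeded sham 3. The log2 difference from sham was -1.40 (SE 0.60, limma adjusted p = 0.0868). With the replicate number as a block the adjusted p was 0.00334. With replicates 2 and 3 alone it was 0.031 for a difference of -1.48. Against TAC the difference was -0.97 (limma adjusted p = 0.219, and 0.0155 with the block). The RefSeq table names 3 further copies of Psmb6, pseudogenes or like genes, which can share its reads.

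In the alpha ring, which gates the entry to the core, Psma4 was the only gene called. It measured 117, 156 and 167 in sham, 147, 129 and 153 in TAC, and 201, 189 and 325 in fetal libraries. All fetal values were above all adult values, with fetal 3 far above the other two. The log2 difference was 0.67 against sham (SE 0.23, limma adjusted p = 0.042) and 0.70 against TAC (limma adjusted p = 0.0364). The call was lost in 13 of 23 settings, and without fetal 3 the difference was 0.42 (adjusted p = 0.116). Psma1, Psma5 and Psma6 differed from sham by 0.21, 0.09 and -0.54 and were not called.

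As a share of the summed 10 core genes, Psmb7 made up 21.3% in sham, 22.9% in TAC and 12.9% in fetal libraries on average. Psma4 made up 8.18%, 8.05% and 15.7%, and Psmb4 15.8%, 14.9% and 10.5%. The order of the core genes thus differed: Psmb7 led in the adult libraries, Psmb1 in fetal 1 and 2, and Psma4 in fetal 3. In fetal ventricle the means of Psmb1 and Psma4, 255 ± 31.7 and 239 ± 75.4, did not differ beyond their spread. The summed core level was 1807 ± 139 in sham, 1780 ± 78.4 in TAC and 1520 ± 142 in fetal libraries (SD, n = 3 each). The 3 fetal sums lay below the 3 sham sums, with a two-sided exact permutation p = 0.1, the smallest possible here. The median core gene stood at 151 ± 16.0 in sham and 152 ± 14.9 in fetal libraries and between the 92.0 and 95.3 percentile of all loci tested in each library.

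Among the 5 measured ATPases of the 19S cap, which unfold substrates and open the gate, Psmc5 and Psmc2 were lower in fetal ventricle. Psmc5 measured 173, 193 and 283 in sham, 188, 248 and 198 in TAC, and 95.6, 109 and 107 in fetal libraries. The fetal values were close to each other and below every adult value. On the log2 scale Psmc5 differed by -1.02 against sham (SE 0.20, limma adjusted p = 0.00347) and -1.01 against TAC (limma adjusted p = 0.00374). With reference transcripts only, the differences were -2.40 (adjusted p = 0.57) and -0.36 (adjusted p = 0.946).

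Psmc2, another ATPase of the ring, stood at 147, 152 and 150 in sham, 163, 173 and 152 in TAC, and 102, 105 and 98.3 in fetal libraries. The fetal group was separate from both adult groups. It differed on the log2 scale by -0.55 against sham (SE 0.11, limma adjusted p = 0.00304) and -0.67 against TAC (limma adjusted p = 0.00119). With library totals made equal in place of the median of ratios, the adjusted p was 0.0876 and 0.0605. With reference transcripts only, the differences were -0.14 (adjusted p = 0.648) and -0.42 (adjusted p = 0.141). Psmc1, Psmc4 and Psmc6 differed from sham by -0.33, -0.46 and 0.25 and were not called, but with the replicate block Psmc4 had an adjusted p of 0.0192.

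Of the 9 non-ATPase genes of the cap, Psmd2 and Psmd12 were lower than sham. Psmd2, a scaffold that docks ubiquitin shuttles, measured 172, 167 and 223 in sham, 148, 179 and 165 in TAC, and 119, 153 and 98.0 in fetal libraries. The fetal values lay below the sham values but overlapped with TAC. The log2 difference from sham was -0.61 (SE 0.19, limma adjusted p = 0.0304), a call that was lost in 8 of 23 settings, and the difference from TAC was -0.43 (limma adjusted p = 0.103).

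Psmd12, a scaffold subunit of the lid, stood at 132, 132 and 139 in sham, 126, 110 and 127 in TAC, and 101, 98.1 and 89.8 in fetal libraries. The 3 groups did not overlap, with sham highest and fetal lowest. The log2 difference was -0.48 from sham (SE 0.11, limma adjusted p = 0.00902) and -0.33 from TAC (limma adjusted p = 0.0443, and 0.067 with the replicate block). The call against TAC was lost in 14 of 23 settings and changed sign in 1, with reference transcripts only, and with library totals made equal the difference was -0.09. The call against sham was lost in 3 of 23 settings. The adjusted p was 0.173 with library totals made equal, 0.112 with upper quartile scaling and 0.765 with reference transcripts only.

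The other 7 non-ATPase genes were not called and differed from sham by between -0.34 for Psmd1 and 0.27 for Psmd8. They include Psmd14, the deubiquitinase of the lid, at 73.6 ± 10.1 in sham and 64.8 ± 2.31 in fetal libraries (SD, n = 3 each). Its interval of the log2 difference was -0.56 to 0.22. Psmd13, a lid subunit, was the steadiest of the standard members, and its highest library was 1.25 times its lowest. The summed 14 cap genes stood at 1673 ± 114 in sham, 1640 ± 46.0 in TAC and 1307 ± 72.3 in fetal libraries, with fetal below sham in all 3 libraries (two-sided exact permutation p = 0.1, the smallest possible).

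Of the assembly helpers, Psmd5, a chaperone of the 19S base that is no part of the finished proteasome, was higher in fetal ventricle. It measured 14.0, 20.3 and 15.5 in sham, 22, 19.2 and 18.1 in TAC, and 30.7, 25.2 and 23.2 in fetal libraries. The fetal values were above all adult values, while sham and TAC overlapped. The log2 difference was 0.64 from sham (SE 0.18, limma adjusted p = 0.019) and 0.39 from TAC (limma adjusted p = 0.11). Without fetal 1, sham 1 or sham 3 the adjusted p against sham was 0.0681, 0.0626 and 0.0545. Psmg1 and Psmg2, which pair up to start the alpha ring, differed from sham by -0.13 and 0.46 and were not called.

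**Figure D4:**
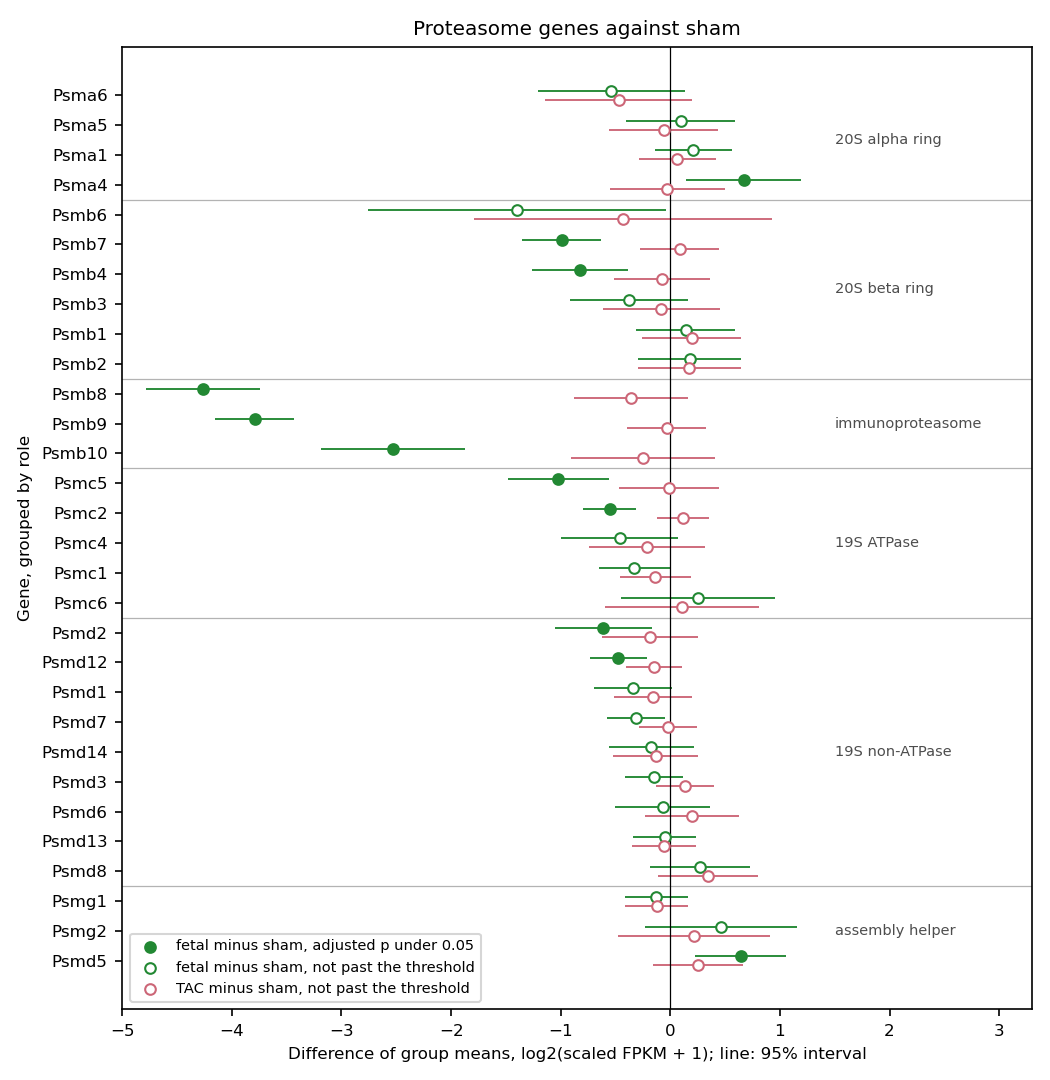
Difference from sham on the log2(scaled FPKM + 1) scale for 30 proteasome genes in fetal (green) and TAC (red) ventricle, grouped by role, with 95% intervals; filled points passed an adjusted p of 0.05. The fetal points of Psmb8, Psmb9 and Psmb10 lie between -4.26 and -2.53, the other fetal points between -1.40 and 0.67, and no TAC point is filled.

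Pressure overload was accompanied by no called change in any proteasome gene. Against sham, limma called 0 of 30, and 0 of 30 had an unadjusted p below 0.05, beside 0.0141% of all loci called and 4.33% with an unadjusted p below 0.05. The log2 differences ran from -0.47 for Psma6 to 0.35 for Psmd8, with a median of -0.05 beside -0.01 over all loci. Psmd12 was the only gene whose TAC and sham values did not overlap, with all TAC values lower, as seen for 4.56% of all loci, and none had all TAC values higher, as seen for 4.26%. The immunoproteasome genes Psmb8, Psmb9 and Psmb10 differed by -0.36, -0.03 and -0.25, and their 95% intervals were -0.88 to 0.16, -0.39 to 0.33 and -0.91 to 0.41. For 28 of the 30 genes the interval stayed within 1 log2 unit, a 2-fold change, in either direction. The exceptions were Psma6, with a lower bound of -1.14, and Psmb6, with an interval of -1.79 to 0.93.

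Fetal ventricle was also compared with TAC, a comparison that shares its fetal libraries with the one above and its TAC libraries with the one just described. Of 30 genes, 8 were lower and 1 higher, beside 22.8% and 22.7% of all loci and 45.5% in either direction. The median log2 difference was -0.22, beside 0.04 over all loci, but with equal library totals or upper quartile scaling it was 0.0094 or 0.053, beside 0.24 or 0.28 over all loci. The fetal and TAC values did not overlap for 10 genes on the low side and 2 on the high side, against 27.6% and 28.3% of all loci. The 8 lower genes were the 3 immunoproteasome genes, Psmb7, Psmb4, Psmc5, Psmc2 and Psmd12, and the higher gene was Psma4, with the values given above. Psmd2 and Psmd5, called against sham, were not called here.

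Among the 27 standard members and helpers, the ratio of the highest to the lowest library had a median of 1.80. It was at most 2 for 15 genes and at most 3 for 26, and Psmb6 reached 8.79. Psmb6, Psmc4 and Psmc6 were highest in the first library of all 3 groups, and Psmc5 and Psmd3 were lowest there. The SD of the log2 levels over the 10 core genes lay between 0.60 and 1.25 in each library. Its mean was 0.75 ± 0.20 in sham, 0.87 ± 0.14 in TAC and 0.92 ± 0.31 in fetal libraries (two-sided exact permutation p = 0.6 for fetal against sham), and the groups overlapped.

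**Figure D5:**
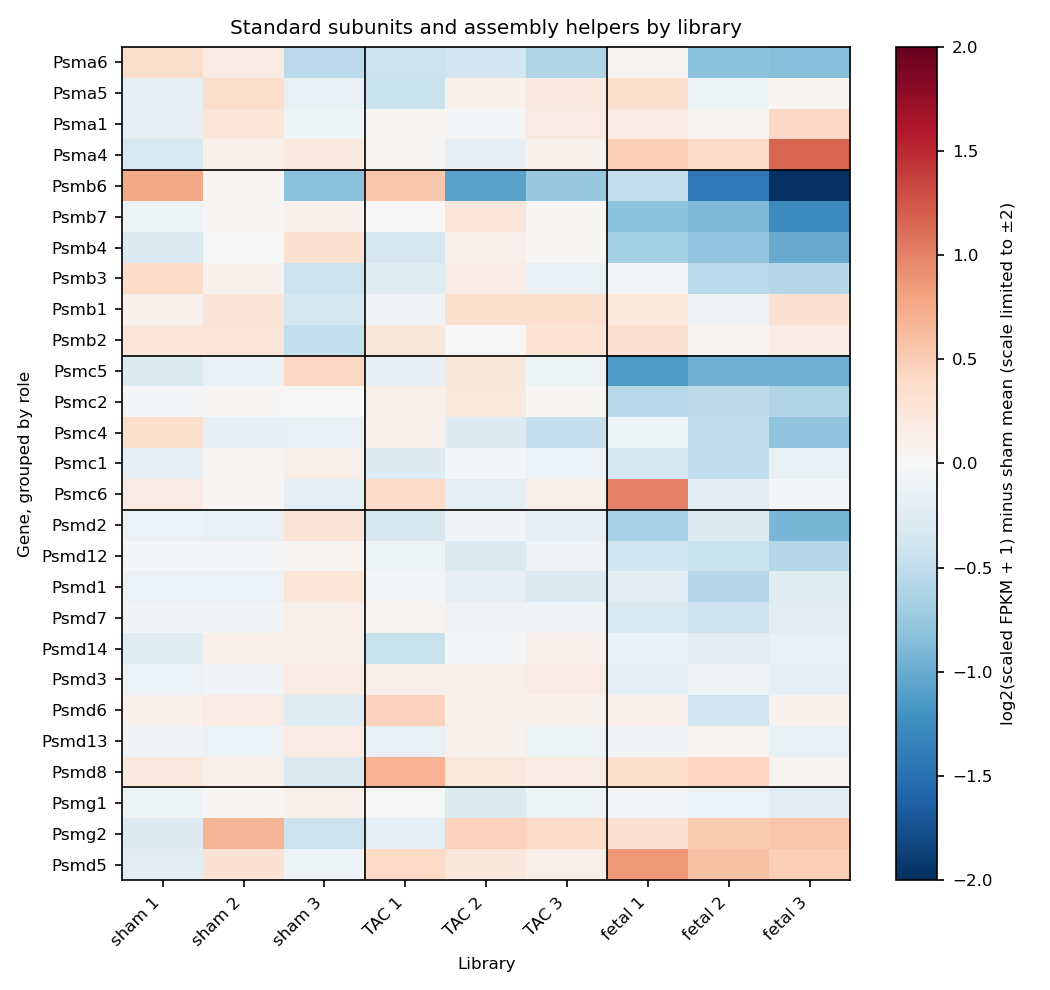
Level of each of the 27 standard subunit and helper genes in each library on the log2(scaled FPKM + 1) scale, minus the mean of the 3 sham libraries (color, limited to ±2), grouped by role. Psmb7, Psmb4, Psmc5 and Psmc2 are below the sham mean in all 3 fetal libraries, and the first library of each group has the highest Psmb6 level of its group.

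The transcripts that make up the loci were examined because the series was built around transcript variants. Among 17 transcripts of proteasome loci that could be tested for their share of the locus, 0 were called in any comparison by limma. Of all 11426 transcripts tested, 0.21% were called for fetal against sham, 0.0525% for TAC against sham and 0.639% for fetal against TAC. At an unadjusted p below 0.05 there was 1 proteasome transcript for fetal against sham, the same one for fetal against TAC, and 0 for TAC against sham. It was the reference transcript of Psma6, which made up 100% of its locus in all adult libraries and 63.9%, 100% and 51.5% in fetal libraries. The reference transcript of Psmc5 made up 27.7%, 18.7% and 100% of its locus in sham, 100%, 21.7% and 0% in TAC, and 100%, 0% and 35.1% in fetal libraries. The share of Psmc5 thus ranged widely within each group, while its summed locus separated fetal from adult libraries.

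Genes that work with the proteasome moved in both directions. Of 27 partners and regulators listed, 15 were tested, and 3 were higher and 2 lower in fetal than in sham ventricle, with a median log2 difference of -0.02, beside 22.4% higher and 23% lower over all loci, so the list was called no more often than loci in general. Usp14 and Uchl5, the deubiquitinases bound to the 19S cap, were higher by 0.91 and 0.67 (limma adjusted p = 0.00783 and 0.0312). Rad23b, a shuttle that carries ubiquitinated proteins to the proteasome, was higher by 0.52 (limma adjusted p = 0.0209). Adrm1, the cap's ubiquitin receptor that recruits Uchl5, fell by 0.66 (limma adjusted p = 0.00841), and Zfand5, a proteasome-binding zinc finger protein, fell by 0.52 (limma adjusted p = 0.0372).

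Pomp, the chaperone that matures the 20S core, differed by -0.01 and stood at 180 ± 57.5 in sham and 174 ± 30.4 in fetal libraries (SD, n = 3 each). Vcp, the segregase that feeds substrates to the proteasome, differed by -0.13, and Nfe2l2, a transcription factor of the antioxidant response, by -0.11, and neither was called. Against TAC, Ddi2, a protease that activates a regulator of proteasome genes, was higher by 0.60 (limma adjusted p = 0.0271), and Nploc4, a cofactor of Vcp, was lower, at -0.45 (limma adjusted p = 0.0157). Of the muscle ubiquitin ligases only Trim55 and Mdm2 could be tested, and Mdm2 was lower than TAC, at -0.50 (limma adjusted p = 0.014), but was not called against sham. Trim55 stood at 114 ± 4.89 in sham, 140 ± 18.2 in TAC and 388 ± 163 in fetal libraries, a log2 difference of 1.68 from sham (limma adjusted p = 0.000931). No gene of these lists was called between TAC and sham.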

How the data were processed

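RNA-seq was measured in 9 rat ventricle libraries, 3 each of sham, TAC and fetal. The deposited values are FPKM per gene and transcript, made by the authors with TopHat 1.3.1 and Cufflinks 1.0.3 on rn4, per the submitters' processing notes, with a separate assembly for each library. Loci were joined across libraries by their Ensembl transcripts, and the assembled transcripts of the same gene were added in. Each library was divided by a median of ratios over 13175 loci and the whole set to a mean total of 1000000 per library. Fragments were implied from the deposited confidence bounds, and 91.4% to 97.2% of low values came out whole within 2%. Loci with at least 1 scaled FPKM in at least 3 libraries (14192) entered limma 3.58.1 (R 4.3.3) with a trend, on log2 of the value plus 1, with all 9 libraries and group as the term. The procedure was tested on simulated data. A transcript's share was tested where its locus averaged 3 or more and the share averaged 5% to 95%. The deposited files hold no read counts, so no count model was used. Alternatives covered pseudocount, filter, scaling, batch, transcript choice and each library left out. Libraries with the same number deviated together, with correlations of 0.469 to 0.514 for number 1, 0.213 to 0.272 for number 2 and 0.154 to 0.184 for number 3. The numbers come from the sample titles. They were used as a block in an alternative setting only, and the main fit did not pair the libraries. Libraries numbered 2 and 3 correlated across numbers as well, by 0.119 to 0.287, so number 1 alone stands apart. Named genes are all members, with every library given for the catalytic genes, for the members called and for members at 0, and the genes past the threshold of the partner, antigen presentation and ligase lists, with cell type markers given by counts and ranges. The members and the lists were chosen with earlier results of these data known. The TruSeq kit does not mark strand, so antisense reads cannot be separated. RefSeq names (GRCr8) matched 31 of 31 members.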

Additional observations from a re-analysis of the deposited data

How the results depend on the processing

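Counts and medians were recomputed under 23 alternatives, of which 9 left out 1 library each. For TAC against sham, all settings gave 0 called members, and the transcript shares gave 0 in all comparisons and settings in which they were computed. For fetal against sham, the number called higher was 1 without a filter, with equal library totals and without a trend. It was also 1 with a fit of just those groups. It was 0 with reference transcripts only and with replicates 2 and 3 alone, and 0 to 2 when 1 library was left out. The number called lower was 2 with reference transcripts only. With equal library totals, Psmc2, Psmd12 and Psmd2 lost their lower calls (limma adjusted p = 0.0876, 0.173 and 0.072). With upper quartile scaling, Psmd12 and Psmd2 lost theirs (limma adjusted p = 0.112 and 0.111). The median log2 difference was -0.16 with equal library totals, -0.12 with upper quartile scaling and -0.11 with reference transcripts only. For fetal against TAC, the number called higher was 0 without a filter, with reference transcripts only and with replicates 2 and 3 alone. It was 2 with equal totals and with upper quartile scaling, and 0 to 1 when 1 library was left out. The number called lower was 5 with equal totals and 3 with reference transcripts only. The median was 0.0094 with equal totals and 0.053 with upper quartile scaling, a change of sign. These scalings moved the median of all loci to 0.24 and 0.28, and the members' median lay 0.23 below it under both. For fetal against sham they moved the median of all loci to 0.19 and 0.23, and the members' median lay 0.35 below it under both. With reference transcripts only, Psmd12 had a difference of 0.027 between fetal and TAC, also a change of sign. The cause of these changes was not tested. The replicate block changed the calls of Psmb6, Psmc4 and Psmd12 given with those genes, and of no other member in any comparison. Depth limits Psmb8 and Psmb9 in fetal ventricle, where 12 to 23 fragments lay behind each value, and the intervals of the other members come from 3 libraries a group.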

Other observations

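Psmb8 and Psmb9 flank Tap1 on rn4 chromosome 20, and the window of 50 kb around each immunoproteasome gene was described after its values were seen. Around Psmb8, 4 of the 4 other loci tested were lower in fetal than in sham ventricle, beside 23% of all loci. Their median log2 difference was -2.93. They were Tap2, Tap1, Psmb9 and RT1-DMb, a class II chaperone gene that stood at 46.7 ± 4.29 in sham and 12.0 ± 2.85 in fetal libraries (SD, n = 3 each). Psmb9 is itself a member counted above. Among fetal libraries, Tap1 reached the filter of 1 only in fetal 2, and Tap2 only in fetal 2 and 3. RT1-DMa, within 50 kb of Psmb9, measured 14.9 ± 8.16 in sham and 7.10 ± 1.49 in fetal libraries and was not called (limma adjusted p = 0.0894). Around Psmb10 on chromosome 19, 2 of 4 other loci tested were lower and none higher, with a median of -0.56, beside the same 23%. One of these was at 0 in all fetal libraries and entered the test through the adult libraries. These windows overlap on chromosome 20, so their loci are not separate observations.

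Both of the following gene names needed care. Psme3, an activator of the nuclear proteasome, was named at rn4 chr11:81011436-81012192 and was listed at 0 in all 9 libraries. The RefSeq table places Psme3 on another chromosome and lists a pseudogene of it, Psme3-ps4, on this one, so this zero is no measurement of the activator. Psmc3ip, the recombination factor that shares the name pattern, measured 10.6, 17.0 and 18.8 in sham, 17.3, 23.4 and 19 in TAC, and 16.3, 24.8 and 19.2 in fetal libraries. These values overlapped in all groups and were not called. In all, 13 of the 31 members have pseudogenes or copies in the RefSeq table, 36 together, with 10 for Psmb3 and 5 for Psma6. How the authors' alignment divided reads between a gene and its copies was not examined.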
